A study of Bos taurus with 90 samples.

Results

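Small RNA sequencing of rumen epithelium was compared with that of mammary gland in lactating dairy cows, using 36 of the 90 samples, the 18 labelled rumen epithelium and the 18 labelled mammary gland. According to the methods of the study, the tissues were taken after slaughter from 18 mid-lactation Chinese Holstein cows. In each tissue 6 samples came from cows fed rice straw, 6 from cows fed corn stover and 6 from cows fed alfalfa hay, and no other treatment or genotype is given in the labels. The labels do not tie a sample number to a cow, so the samples were compared as separate samples. Rumen files listed 340 miRNAs and mammary gland files 328. The 304 miRNAs listed in both were compared, and the 36 listed in rumen only and the 24 listed in mammary gland only are described separately.

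A miRNA is a short RNA cut from a hairpin precursor. It is loaded into an Argonaute protein and, pairing mostly through its seed region, lowers the stability or the translation of target mRNAs. The rumen epithelium is a keratinised stratified squamous lining that absorbs the fermentation acids of the forestomach. The lactating mammary gland is a secretory organ whose alveolar epithelium makes milk, set among myoepithelial cells, fat, vessels and connective tissue. Each tissue is known for its own abundant miRNAs, such as miR-205 in squamous epithelia and miR-148a in milk and the gland that makes it.

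Levels are CPM, that is, the reads of a miRNA in every 1000000 reads mapped to any miRNA of its library. The mapped reads recovered from the CPM ran from 2337879 to 9024345 in rumen with a median of 4001233. In mammary gland they ran from 937556 to 14328839 with a median of 5570152.5, so that 3 reads were worth 0.332 to 1.28 CPM in rumen and 0.209 to 3.2 CPM in mammary gland. Of the 36 libraries, 7 stood apart from their tissue, with a correlation below 0.98 with its median log2 profile. They were rumen alfalfa hay 1, mammary rice straw 1 to 5 and mammary alfalfa hay 1, whose correlations were 0.9437 to 0.9768. Of these, mammary rice straw 1 and 5 and mammary alfalfa hay 1 held fewer than 2000000 mapped reads. Without these libraries 17 rumen and 12 mammary gland samples remained, with only replicate 6 left for rice straw in mammary gland. The SD over samples on the log2 scale had a median of 0.46 over miRNAs in rumen and 0.8 in mammary gland, and 0.41 and 0.4 without the libraries that stood apart.

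Most miRNAs differed in level between the tissues. Of 303 miRNAs tested with limma on log2(CPM + 1), 141 were higher in rumen (46.5%) and 90 were higher in mammary gland (29.7%) at an adjusted p under 0.05, while 72 did not pass. The difference exceeded 1 log2 unit for 86 of those higher in rumen and for 63 of those higher in mammary gland. In bulk samples like these, fewer cells of a type and less RNA per cell cannot be told apart. The split depends on the scaling, because the median difference of all miRNAs was 0.33 log2 units towards rumen in the deposited CPM and 0.03 after trimmed-mean (TMM) scaling. With TMM scaling 114 were higher in rumen (37.6%) and 112 in mammary gland (37.0%). All 114 were among the 141 and all 90 were among the 112, and 0 changed direction. Small differences therefore depend on the scaling. let-7b differed by 0.35 log2 units in the deposited CPM and 0.0 with TMM scaling, and miR-148b by 0.34 and -0.01. let-7g, at 0.56 and 0.22, also lost its call. Without the libraries that stood apart, 136 were higher in rumen and 100 in mammary gland, of which 129 and 87 were called in all samples too. For 37 miRNAs (12.2%) every rumen sample lay above every mammary gland sample, and for 8 (2.64%) every mammary gland sample lay above every rumen sample.

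**Figure D1:**
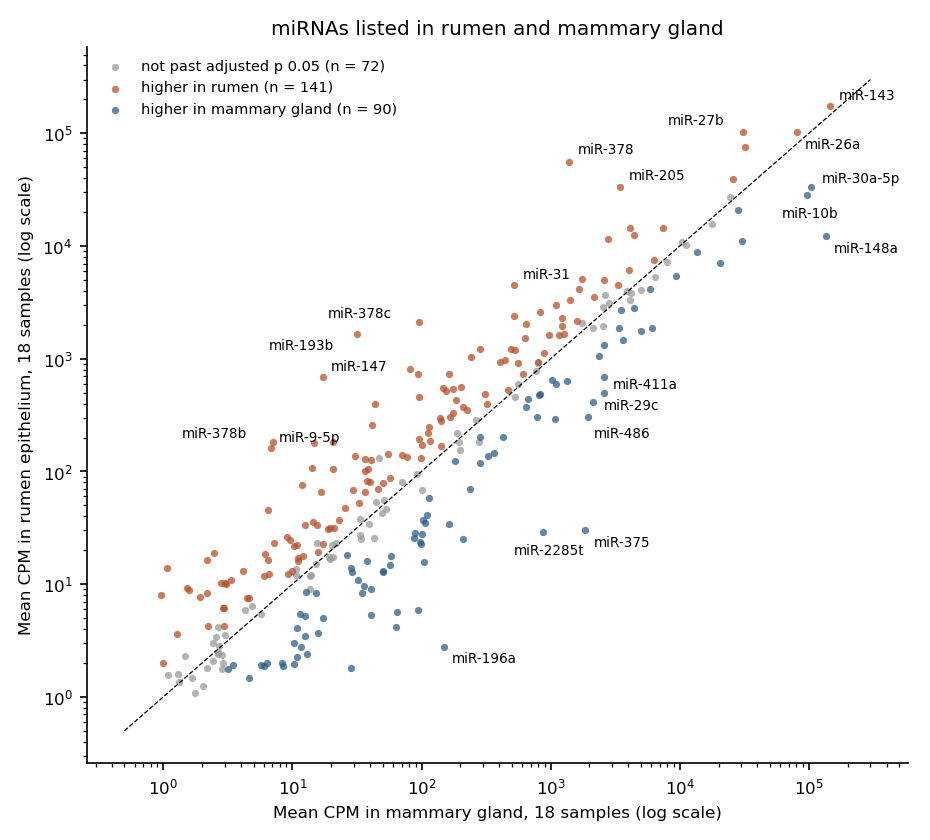
Mean CPM of the 303 miRNAs tested, in mammary gland (horizontal, log scale) and in rumen (vertical, log scale), 18 samples each. Colours give the limma call at adjusted p 0.05 and the dashed line marks equal means. miR-378, miR-193b and miR-147 lie farthest above the line, and miR-375, miR-196a and miR-2285t farthest below it.

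The tissues shared 7 of their 10 most abundant miRNAs. miR-143, known from smooth muscle and other mesenchymal cells, ranked 1 in both, with 17.4% ± 3.24 of mapped reads in rumen and 14.6% ± 4.57 in mammary gland (SD, n = 18 each). Its difference was 0.30 ± 0.11 log2 units (SE, limma adjusted p = 0.0135) in the deposited CPM and -0.05 with TMM scaling, so it showed no direction that held under both. miR-27b, miR-26a, miR-21-5p, miR-22-3p, miR-30a-5p and miR-10b were the other shared members. Rumen held miR-378, miR-205 and let-7a-5p in its 10, where mammary gland held miR-148a, miR-141 and miR-126-5p. miR-378 ranked 5 in rumen and 58 in mammary gland, and miR-205 ranked 7 and 35. In the other direction miR-148a ranked 2 in mammary gland and 16 in rumen, and miR-141 ranked 8 and 18. The 10 most abundant together took 67.4% ± 1.63 of mapped reads in rumen and 71.0% ± 6.03 in mammary gland (SD, n = 18 each), a difference of -3.64 percentage points (two-sided permutation test, p = 0.012). Without the libraries that stood apart the difference was -1.36 points (permutation p = 0.202).

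The miR-378 family, whose first member is encoded within the metabolic coactivator gene PPARGC1B, had the largest median difference of the lists examined, at 4.55 log2 units. miR-378 was at 36043 CPM in the lowest rumen sample, 54125 in the median and 81148 in the highest, against 407, 1379 and 2590 CPM in mammary gland. Every rumen sample was above every mammary gland sample, and the difference was 5.37 ± 0.15 log2 units (SE, limma adjusted p = 5.29e-28). miR-378b and miR-378c differed by 4.53 ± 0.16 and 4.55 ± 0.19 log2 units and did not overlap between the tissues either. Of all miRNAs tested, 46.5% were higher in rumen (37.6% with TMM scaling) and 12.2% were fully separate in that direction. The 3 members together held 57495 CPM ± 13503 in rumen and 1503 ± 553 in mammary gland (SD, n = 18 each). Reads can be shared among such near-identical members, because the alignment of the study allowed mismatches and several mappings per read, so their separate values are uncertain.

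The 2 tested miRNAs of the squamous epithelium list were higher in rumen, as were 46.5% of all miRNAs tested (37.6% with TMM scaling). Every rumen sample lay above every mammary gland sample for 12.2% of all miRNAs tested. miR-205, which is abundant in epidermis and other squamous epithelia and acts against ZEB1 and ZEB2, ran from 23016 to 52132 CPM in rumen (median 32788) and from 768 to 8442 CPM in mammary gland (median 2744). The tissues did not overlap, and the difference was 3.50 ± 0.22 log2 units (SE, limma adjusted p = 4.22e-17). miR-31, a miRNA of keratinocytes, ran from 2564 to 6836 CPM in rumen and from 111 to 1045 CPM in mammary gland, a difference of 3.26 ± 0.21 log2 units. A further member, miR-184, was listed in rumen and not in mammary gland, at 7.21 CPM ± 6.44. It was also listed in duodenum and jejunum, at 13.2 and 7.15 mean CPM. miR-203 was not analysed here. miR-205 and miR-31 were therefore present in all 18 samples labelled rumen epithelium, and miR-205 was also at 768 CPM or more in all 18 mammary gland samples.

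Among miRNAs higher in rumen, miR-193b had the largest difference of those with a mean there of at least 100 CPM. It was at 961, 1523 and 2380 CPM in the lowest, median and highest rumen sample and at 7.86, 30.8 and 65.8 CPM in mammary gland, a difference of 5.76 ± 0.18 log2 units (SE, limma adjusted p = 4.91e-27) and a ratio of means of 53.1. miR-365-3p, which is encoded next to miR-193 genes, differed by 3.30 ± 0.19, with 263 to 562 CPM in rumen and 9.07 to 78.5 CPM in mammary gland. All 4 tested members of the miR-193 and miR-365 list were higher in rumen under both scalings, beside 46.5% of all miRNAs tested (37.6% with TMM scaling). miR-365-5p was listed in rumen only at 4.45 CPM ± 2.17. miR-147, known from activated macrophages, ran from 490 to 956 CPM in rumen and from 1.96 to 39.5 CPM in mammary gland, a difference of 5.54 ± 0.26 log2 units (SE, limma adjusted p = 3.57e-21). miR-210, the main miRNA induced by hypoxia through HIF, ran from 447 to 1005 CPM in rumen and from 25.6 to 155 CPM in mammary gland, a difference of 3.05 ± 0.18. Neither overlapped between the tissues, beside 12.2% of all miRNAs tested that were fully separate towards rumen.

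The other miRNAs among the 12 with the largest differences towards rumen were miR-9-5p, miR-708, miR-149-5p and miR-21-3p. miR-9-5p, best known from neural tissue, had a median of 153 CPM in rumen and 4.57 CPM in mammary gland, a difference of 4.55 ± 0.29 log2 units, with a highest mammary gland value of 28 CPM below the lowest rumen value of 46.7. miR-708 differed by 3.75 ± 0.27, with medians of 155 and 13.4 CPM, and miR-149-5p by 3.38 ± 0.29, with medians of 181 and 18 CPM. For miR-21-3p the medians were 824 and 58.9 CPM, and 17 of 18 rumen samples were above the highest mammary gland sample, which held 253 CPM. Its partner arm miR-21-5p, widely expressed and often raised in growing cells, ran from 40717 to 109901 CPM in rumen and from 12837 to 51621 CPM in mammary gland, a smaller difference of 1.27 ± 0.12 log2 units (SE, limma adjusted p = 1.55e-11).

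**Figure D2:**
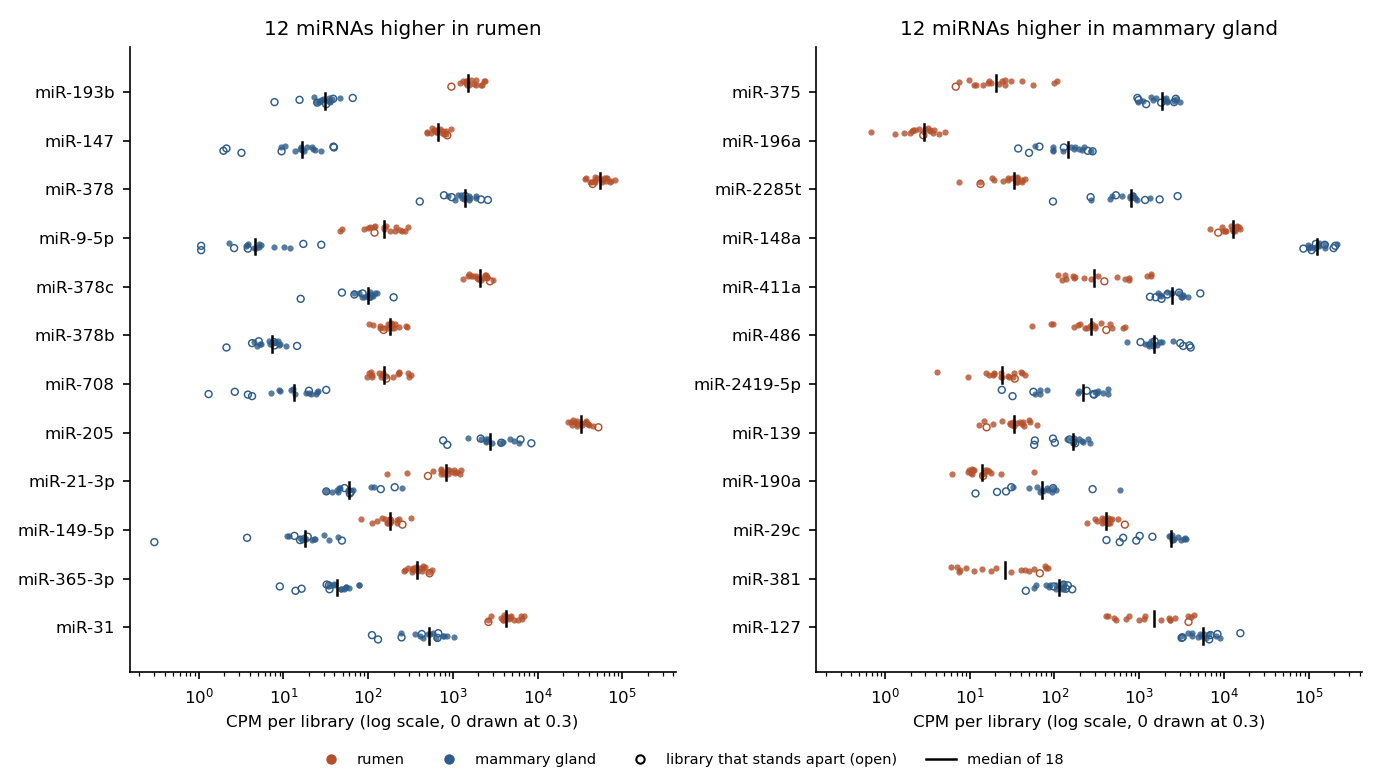
CPM of each of the 36 libraries (log scale) for the 12 miRNAs with the largest differences in each direction, with the median of 18 as a black bar and the libraries that stood apart as open circles. The tissues are fully separate for 11 of the rumen-side miRNAs and for 5 of the mammary-side miRNAs, and an open circle is the lowest mammary gland value of each rumen-side miRNA except miR-21-3p.

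Several clustered families were mostly or entirely higher in rumen, as were 46.5% of all miRNAs tested (37.6% with TMM scaling). For 12.2% of all miRNAs tested every rumen sample lay above every mammary gland sample. All 6 tested members of the miR-23, miR-27 and miR-24 list were higher in rumen under both scalings, with a median difference of 1.71 log2 units. miR-27b was the most abundant of them, with 81998 to 137532 CPM in rumen and 15441 to 41251 CPM in mammary gland, a difference of 1.79 ± 0.09 log2 units (SE, limma adjusted p = 5.88e-21). Both miR-221 and miR-222, which act on the cell cycle inhibitor CDKN1B, were higher in rumen, by 2.28 ± 0.24 and 2.33 ± 0.22, and neither overlapped between the tissues. All 5 members of the miR-130, miR-301 and miR-454 list were higher in rumen, by 1.22 to 2.93 log2 units. Of 14 miRNAs from the miR-17-92 cluster and its paralogs, which are linked to cell proliferation, 11 were higher in rumen. miR-93 was the clearest, at 1441 to 3045 CPM in rumen and 159 to 818 CPM in mammary gland, a difference of 2.31 ± 0.16. The 3 exceptions, miR-20b, miR-106a and miR-363, belong to the paralog on the X chromosome and were lower in rumen by 1.41 ± 0.25, 1.52 ± 0.27 and 2.67 ± 0.21. Their levels were low, with mean CPM of 1.99, 2.28 and 5.36 in rumen and 8.32, 10.8 and 40.5 in mammary gland.

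On the mammary side, miR-148a separated the tissues at the highest level. It is among the most abundant miRNAs of milk and acts on the DNA methyltransferase DNMT1. It was at 6891, 12844 and 15478 CPM in the lowest, median and highest rumen sample and at 86639, 124649 and 216977 CPM in mammary gland, a difference of -3.45 ± 0.11 log2 units (SE, rumen minus mammary gland, limma adjusted p = 4.91e-27). The highest rumen sample therefore lay far below the lowest mammary gland sample. Its family member miR-152 was also higher in mammary gland (138 against 329 mean CPM, difference -1.05 ± 0.20). miR-148b was higher in rumen by 0.34 ± 0.15 in the deposited CPM, a call that was lost with TMM scaling.

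miR-375, a miRNA of endocrine and secretory cells, had the largest difference of all named miRNAs. It ran from 6.84 to 106 CPM in rumen (median 20.2) and from 952 to 3029 CPM in mammary gland (median 1877), a difference of -6.23 ± 0.28 log2 units (SE, limma adjusted p = 1.32e-21). The 2 highest rumen samples, at 106 and 97.5 CPM, were alfalfa hay 3 and corn stover 4. miR-30a-5p, abundant in many epithelia, ran from 25479 to 46225 CPM in rumen and from 64439 to 178128 CPM in mammary gland, a difference of -1.64 ± 0.10. miR-2285t, a member of a large ruminant family, ran from 7.45 to 44.8 CPM in rumen and from 96 to 2842 CPM in mammary gland, a difference of -4.64 ± 0.26. miR-6522, which had a mean of 93.4 CPM in mammary gland and was chosen after its values were seen, also separated the tissues fully, with 2.93 to 9.41 CPM in rumen and 62.5 to 153 CPM in mammary gland (difference -3.77 ± 0.13). miR-29c, which acts on collagen mRNAs, had medians of 409 and 2401 CPM and a difference of -2.15 ± 0.18. miR-139, miR-190a and miR-2419-5p differed by -2.23 ± 0.19, -2.19 ± 0.32 and -2.68 ± 0.30, and each overlapped between the tissues, with 16, 12 and 16 of 18 mammary gland samples above the highest rumen sample.

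miRNAs encoded in the HOX gene clusters, whose expression follows body position, differed in both directions. miR-10b was higher in mammary gland, with 16477 to 42449 CPM in rumen and 49952 to 235766 CPM in mammary gland (difference -1.67 ± 0.15, limma adjusted p = 3.04e-12). Its 5 highest values, of 139400 CPM or more, were in mammary rice straw 1, 2, 4 and 5 and mammary alfalfa hay 1, all among the libraries that stood apart, and without those libraries the difference was -1.36. The closely related miR-10a was higher in rumen, with 5979 to 25870 CPM against 2466 to 6892 CPM (difference 1.79 ± 0.15). miR-196a ran from 0.683 to 5.17 CPM in rumen and from 37.3 to 282 CPM in mammary gland, without overlap (difference -5.16 ± 0.23, limma adjusted p = 1.32e-21). miR-196b was listed in mammary gland only, at 62.6 CPM ± 33.0, and miR-615 in rumen only, at 2.35 CPM ± 1.14.

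The miRNAs of the imprinted DLK1-DIO3 region formed the largest set that differed in a single direction. Of 45 on the list, 21 were tested, and all 21 were higher in mammary gland under both scalings, with a median difference of -1.77 log2 units. Over all miRNAs tested 29.7% were higher there, and 37.0% with TMM scaling. Without the libraries that stood apart, 19 of 21 passed, and miR-154b and miR-543 did not. A further 8 were listed in mammary gland only, 0 in rumen only, and 16 in neither tissue. Their summed level ran from 543 to 6145 CPM in rumen (median 2112) and from 5027 to 19110 CPM in mammary gland (median 8665), so the ranges overlapped at the edge. miR-127 and miR-411a held most of it. miR-127 ran from 402 to 4434 CPM in rumen and from 3095 to 15629 CPM in mammary gland (difference -1.99 ± 0.29, limma adjusted p = 1.65e-07), and miR-411a from 109 to 1375 CPM and from 1341 to 5264 CPM (difference -2.83 ± 0.31). miR-381 differed by -2.01 ± 0.32, with medians of 25.8 and 114 CPM. miR-379 differed by -2.82 ± 0.37, with a mammary gland median of 34.4 CPM and a highest value of 626 CPM in mammary rice straw 3. The rumen samples were themselves spread widely, with an SD of 1886 CPM around a mean sum of 2540.

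**Figure D3:**
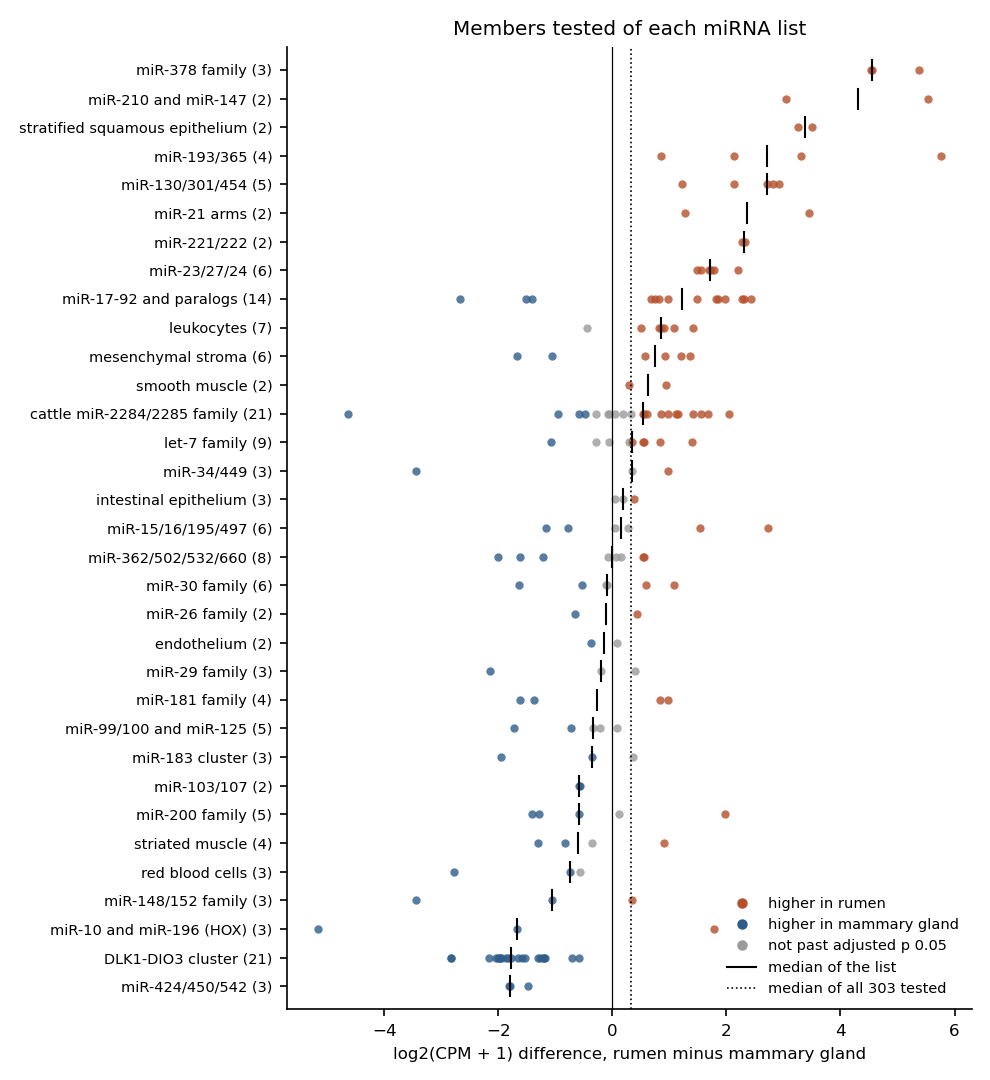
Difference in log2(CPM + 1), rumen minus mammary gland, of each tested member of the miRNA lists (number tested in brackets), coloured by the limma call. Black bars are the median of each list and the dotted line is the median of all 303 miRNAs. The lists range from the miR-378 family, with a median of 4.55, to the miR-424, miR-450 and miR-542 list, with a median of -1.80.

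Other families were split between the tissues. Of the 5 members of the miR-200 family, which keeps cells epithelial by acting on ZEB1 and ZEB2, miR-141, miR-200c and miR-200b were higher in mammary gland, by 1.29 ± 0.20, 1.41 ± 0.17 and 0.59 ± 0.18 log2 units. miR-429 was higher in rumen by 1.97 ± 0.22, with 1550 to 3627 CPM against 92.3 to 1435 CPM, and miR-200a differed by 0.12 ± 0.25 (limma adjusted p = 0.662). The calls were the same with TMM scaling. Of 4 miR-181 members, miR-181a and miR-181b were higher in mammary gland (differences -1.38 ± 0.18 and -1.62 ± 0.22) and miR-181c and miR-181d were higher in rumen (0.84 ± 0.22 and 0.98 ± 0.17). In the miR-15 and miR-16 family, which restrains the cell cycle, miR-15b and miR-16b were higher in rumen (2.73 ± 0.15 and 1.54 ± 0.21), miR-195 and miR-497 were higher in mammary gland (-0.77 ± 0.18 and -1.17 ± 0.27), and miR-15a and miR-16a did not pass. miR-34a, which p53 induces, was higher in rumen by 0.97 ± 0.25, whereas miR-34c was at 0.616 to 10.9 CPM in rumen and 6.4 to 151 CPM in mammary gland (difference -3.44 ± 0.30). All 3 tested miRNAs of the miR-424, miR-450 and miR-542 list were higher in mammary gland, beside 29.7% of all miRNAs tested. The summed levels of this list were 50.9 CPM ± 8.9 in rumen and 196 ± 92.3 in mammary gland.

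For the families with small differences the calls moved with the scaling. Of 9 let-7 family members, which mark differentiated cells, 5 were higher in rumen, 1 in mammary gland and 3 passed in neither direction. With TMM scaling 2 were higher in rumen, let-7d and let-7e, and 3 in mammary gland. The alignment can share reads among similar let-7 members too, so their separate values are uncertain. The sum over the family was 63840 CPM ± 12134 in rumen and 61586 ± 22058 in mammary gland. In the miR-30 family, miR-30e-5p was higher in rumen (1.09 ± 0.16) and miR-30a-5p in mammary gland under both scalings, and the count was 2 and 2 of 6 in the deposited CPM and 1 and 4 with TMM scaling. miR-26b was higher in mammary gland (-0.66 ± 0.17) under both scalings, whereas miR-26a was higher in rumen by 0.44 ± 0.18 in the deposited CPM and by 0.10, short of the threshold, with TMM scaling. Of 3 miR-29 members, miR-29c passed, and miR-29a and miR-29b did not (0.39 ± 0.20 and -0.20 ± 0.20), although miR-29b passed with TMM scaling. miR-103 and miR-107, encoded in pantothenate kinase genes, were both higher in mammary gland, by 0.57 ± 0.15 and 0.59 ± 0.16. In the list of miR-99, miR-100 and miR-125, 2 of 5 were higher in mammary gland, miR-99a-5p (-1.73 ± 0.25) and miR-125b (-0.73 ± 0.24), and 4 were with TMM scaling. Of 3 members of the miR-183 cluster, miR-96 (-1.95 ± 0.20) and miR-182 (-0.36 ± 0.13) were higher in mammary gland, and miR-183 did not pass. Without the libraries that stood apart, miR-182 lost its call and miR-183 was called towards rumen. Of 8 tested miRNAs of the list of miR-362, miR-502, miR-532 and miR-660, 2 were higher in rumen and 3 in mammary gland, and 0 and 4 with TMM scaling. miR-502a and miR-660 were higher in mammary gland by 2.00 ± 0.19 and 1.22 ± 0.16. Of 21 tested members of the ruminant miR-2284 and miR-2285 family, whose sequences resemble each other closely, 11 were higher in rumen and 4 in mammary gland, and 9 and 5 with TMM scaling. These counts lie near the shares over all miRNAs tested, which were 46.5% and 29.7%, and 37.6% and 37.0% with TMM scaling.

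Markers of other cell types were present in both tissues. Their counts stand beside 46.5% of all miRNAs tested that were higher in rumen and 29.7% that were higher in mammary gland. With TMM scaling these shares were 37.6% and 37.0%. Red blood cell miRNAs (miR-451, miR-144 and miR-486) summed to 99.3 to 1430 CPM in rumen and 1070 to 4241 CPM in mammary gland, and 2 of 3 were higher in mammary gland, all 3 with TMM scaling. miR-486 ran from 54.6 to 680 CPM in rumen and from 714 to 4051 CPM in mammary gland (difference -2.78 ± 0.26), whereas miR-451, the defining erythroid miRNA, had means of 204 and 282 CPM and a difference of -0.75 ± 0.33. Leukocyte miRNAs summed to 3952 to 12564 CPM in rumen and 1252 to 11133 CPM in mammary gland. Of 7, 6 were higher in rumen and 0 in mammary gland, and 3 and 1 with TMM scaling, where the share higher in rumen over all miRNAs, 37.6%, is close to 3 of 7. miR-146a, induced by inflammatory signals, was the clearest of them at 1.42 ± 0.22, and miR-223, the defining myeloid miRNA, had means of 65.3 and 36.4 CPM. The endothelial miR-126-3p and miR-126-5p differed by 0.09 ± 0.22 and -0.37 ± 0.16, and 1 of 2 passed, towards mammary gland. Stromal miRNAs miR-199a-3p, miR-199a-5p, miR-199b and miR-214 were higher in rumen by 0.58 to 1.37 log2 units, miR-199b not with TMM scaling, while miR-152 and miR-10b of the same list were higher in mammary gland. Smooth muscle miR-145 was higher in rumen by 0.94 ± 0.22 in the deposited CPM and by 0.59 with TMM scaling, and by 0.34, short of the threshold (limma adjusted p = 0.143), with TMM scaling and without the libraries that stood apart. Of 4 tested striated muscle miRNAs, miR-499 was higher in rumen and miR-1 and miR-133a in mammary gland. Their sum was 43.2 to 145 CPM in rumen and 23.6 to 614 CPM in mammary gland, where the highest library was rice straw 3, with miR-1 at 430 CPM. Intestinal miR-192, miR-194 and miR-215 summed to 2598 to 4561 CPM in rumen and 1905 to 3714 CPM in mammary gland, and 1 of 3 was higher in rumen, 0 with TMM scaling. What part of the tissue differences moved with the content of these cells was not tested.

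Neighbouring miRNA genes were compared by cluster. By their RefSeq positions in cattle (assembly ARS-UCD2.0), 104 of the tested miRNAs fell into 31 clusters with gaps of at most 10 kb. In 19 clusters all tested miRNAs were called in the same direction, and 11 of these 19 were among the 15 clusters of only 2 miRNAs. Over all miRNAs tested 46.5% were called towards rumen and 29.7% towards mammary gland, and what agreement unlinked miRNAs would show was not tested. The largest, with 19 miRNAs, and another of 5 with miR-127, both in the DLK1-DIO3 region, were entirely higher in mammary gland. The clusters of miR-17, miR-18a, miR-19a and miR-20a, of miR-106b, miR-93 and miR-25, and of miR-224, miR-452 and miR-3431 were entirely higher in rumen. Only 2 clusters held calls in both directions. miR-429 was higher in rumen while its neighbour miR-200b was higher in mammary gland, and miR-188 and miR-502b were opposed to miR-362-3p, miR-502a and miR-660. With TMM scaling 2 clusters were again mixed, that of miR-429 and that of let-7e with miR-125a. miRNAs of a cluster are cut from the same transcript or neighbouring ones and are not independent of each other.

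A hairpin precursor yields a 5p and a 3p arm, and the ratio of the arms within a library does not depend on its scaling. Of 20 precursors tested, the 5p to 3p ratio was higher in rumen for 4 (20%) and lower in rumen for 9 (45.0%) by limma at adjusted p under 0.05. miR-423 changed its leading arm. Its log2 ratio ran from -1.65 to -0.87 in rumen and from -0.23 to 2.30 in mammary gland, without overlap, and the 5p arm led in 0 of 18 rumen samples and in 16 of 18 mammary gland samples (difference -1.68 ± 0.18, limma adjusted p = 5.45e-10). The 5p arm was at 923 CPM ± 248 in rumen and 799 ± 464 in mammary gland, and the 3p arm at 2037 ± 479 and 645 ± 444 (SD, n = 18 each). miR-362 went the other way, with the 5p arm leading in 18 of 18 rumen samples and in 3 of 18 mammary gland samples (difference 1.77 ± 0.26, adjusted p = 1.51e-07). Its 5p arm had means of 23.0 and 21.8 CPM, and its 3p arm 8.42 and 34.5 CPM. miR-21 had the largest change, with a median log2 ratio of 6.53 in rumen and 9.30 in mammary gland (difference -2.18 ± 0.25, adjusted p = 1.07e-09). The ratio was also higher in rumen for miR-425 (1.33 ± 0.31), miR-17 (1.3 ± 0.18) and miR-199a (0.45 ± 0.17), and lower in rumen for miR-193a (-1.28 ± 0.29) and miR-345 (-0.87 ± 0.15). Without the libraries that stood apart, 3 ratios were higher and 7 lower in rumen.

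**Figure D4:**
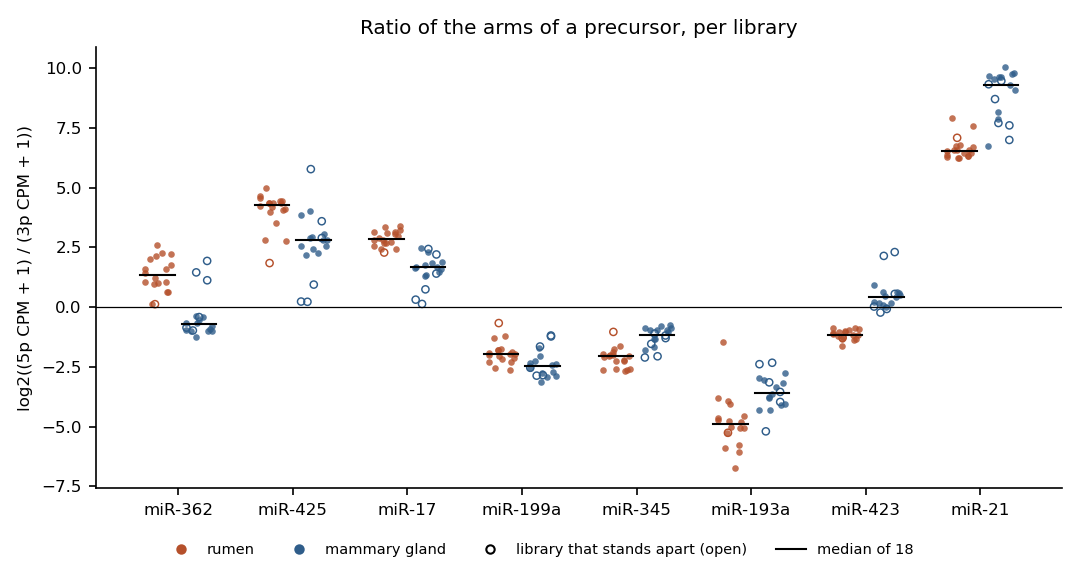
log2 ratio of the 5p to the 3p arm (CPM + 1) in each library for the 4 precursors with the largest change in each direction, with the median of 18 as a black bar and the libraries that stood apart as open circles. Values above 0 mean that the 5p arm had more reads. miR-423 lies below 0 in all rumen samples, and miR-362 lies above 0 in all of them.

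The place of each tissue among the 5 dairy cow tissues of the series differed from miRNA to miRNA. Of the 289 tested miRNAs listed in all 5 tissues, 135 were higher in rumen than in mammary gland. For 89 of these rumen had the highest mean of the 5, for 47 mammary gland had the lowest, and for 20 both held. Over all 289, whether called or not, rumen was highest for 105 and mammary gland lowest for 55. Of 88 that were higher in mammary gland, mammary gland was highest for 45, rumen was lowest for 47, and both held for 15, beside 62 and 54 over all 289. miR-193b was almost as high in liver, at 1535 mean CPM, as in rumen, at 1668. miR-375 was higher in duodenum, at 6785 mean CPM, than in mammary gland, at 1856. miR-148a reached 104301 mean CPM in liver and 135420 in mammary gland. miR-205 had 88.6 mean CPM in liver and 1.91 in duodenum and was not listed in jejunum.

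Of the 36 miRNAs listed in rumen and not in mammary gland, all were low, with means of 1.04 to 9.1 CPM and a median of 1.69, and 5 were above 1 CPM in all 18 samples. No value exists for them in mammary gland, so no difference was tested. A miRNA that is not listed is not thereby absent. Reads of unlisted miRNAs made up 18.7 to 96.5 CPM of each mammary gland library and 51.5 to 106 CPM of each rumen library. The highest were miR-129 and miR-129-5p, listed with the same values of 9.1 CPM ± 6.11, followed by miR-184, miR-2318 at 5.12 ± 4.27, miR-153 at 4.79 ± 3.66, and miR-124a and miR-124b, which shared the values 4.73 ± 2.22. miR-365-5p, miR-2403 (3.33 ± 1.06) and miR-2346 (3.10 ± 1.74) completed the 10. Several of these, such as miR-124a, miR-153 and miR-129, are best known from neurons, and miR-153 had 60 mean CPM in duodenum and 33.0 in jejunum. The 24 listed in mammary gland and not in rumen had means of 0.916 to 72.9 CPM, with a median of 4.12, and 10 were above 1 CPM in all 18 samples. miR-885 led them at 14.9 to 157 CPM and was also listed in liver, at 93.2 mean CPM. miR-196b followed at 19.2 to 130 CPM and was listed in no other of the 5 tissues. miR-2284j (12.3 ± 4.92), miR-135a (11 ± 8.34), miR-409a (10.4 ± 9.85), miR-2411-5p (7.09 ± 3.13), miR-34b (6.66 ± 3.23), miR-382 (5.49 ± 9.02) and miR-299 (5.40 ± 1.77) came next. miR-122, the defining miRNA of hepatocytes, was above 1 CPM in 9 of 18 mammary gland samples, from a lowest value of 0 to a highest value of 48.5 CPM in rice straw 3, against a mean of 11021 CPM in liver.

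The last question was whether the difference between the tissues was the same under the 3 forages. It differed for 26 of 303 miRNAs (8.58%) by the limma test of the interaction, for 7 with TMM scaling, and for 0 without the libraries that stood apart, 5 of which are the rice straw samples 1 to 5 of mammary gland. In that last fit 66 had an unadjusted p under 0.05, and the smallest adjusted p was 0.0608. Over all 36 samples edgeR called 17 and DESeq2 46. For miR-15a the mean in rumen was 913 CPM ± 101 under rice straw, 797 ± 132 under corn stover and 617 ± 207 under alfalfa hay, and in mammary gland it was 389 ± 237, 1226 ± 123 and 708 ± 324 (SD, n = 6 each). Its difference was 1.5 ± 0.36 log2 units under rice straw, -0.63 ± 0.36 under corn stover and -0.07 ± 0.36 under alfalfa hay (limma adjusted p of the interaction = 0.0304). miR-128, best known from neurons, was higher in rumen under each forage, by 2.72 ± 0.32, 0.83 ± 0.32 and 1.27 ± 0.32 in the same order. miR-29c was higher in mammary gland under each, by 1.12 ± 0.32, 3.07 ± 0.32 and 2.27 ± 0.32. miR-362-3p had means of 12.7, 53.1 and 37.6 CPM in mammary gland and of 9.99, 7.93 and 7.35 CPM in rumen. miR-502b had means of 27, 9.69 and 10.5 CPM in mammary gland and of 17.0, 20.8 and 20.1 CPM in rumen. Among the 3 forages, the mammary gland mean under rice straw was the lowest for miR-15a, miR-128, miR-29c and miR-362-3p and the highest for miR-502b. For these 5 the adjusted p of the interaction without the libraries that stood apart was 0.0608 to 0.258. Which of forage and library moved the values under rice straw cannot be told apart, because 5 of the 6 mammary gland libraries there stood apart.

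**Figure D5:**
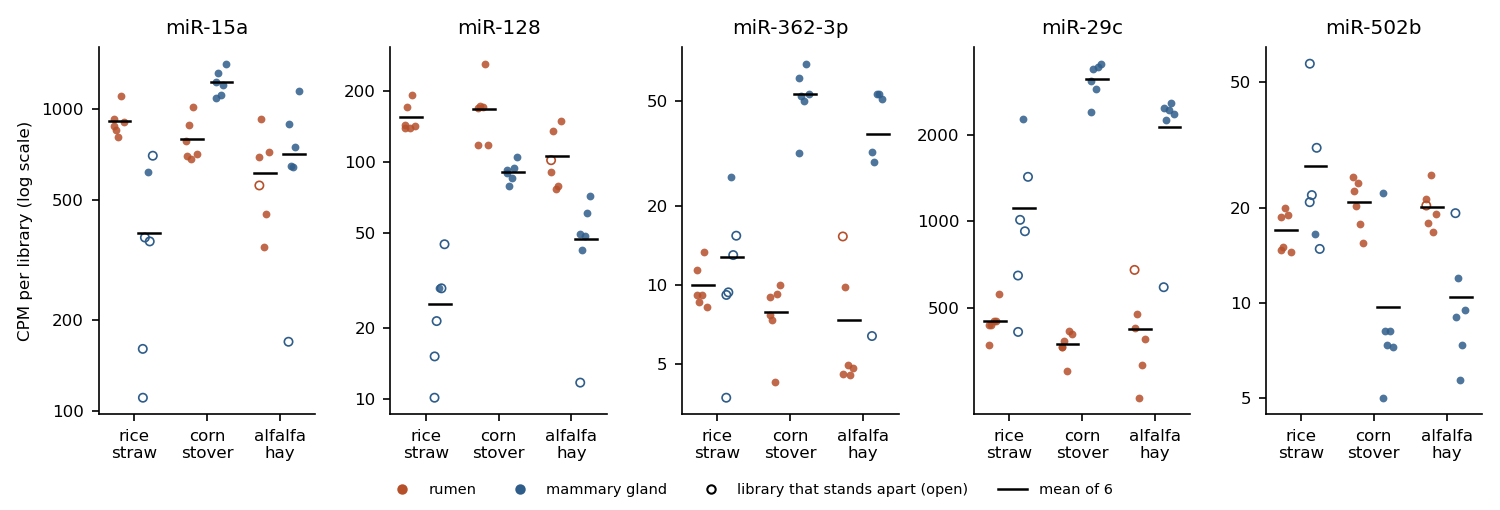
CPM per library (log scale) under the 3 forages for the 5 miRNAs with the smallest adjusted p of the interaction and a mean of at least 10 CPM, with the mean of 6 samples as a black bar and the libraries that stood apart as open circles. Under rice straw 5 of the 6 mammary gland points are open, and the mammary gland mean under rice straw is the lowest of the 3 for miR-15a, miR-128, miR-29c and miR-362-3p and the highest for miR-502b.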

How the data were processed

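The 18 rumen epithelium and 18 mammary gland samples of dairy cows were grouped by the tissue and diet in their labels. The authors filtered reads with CASAVA 1.8, used sRNAbench to trim them and place them on the precursors of cattle miRNAs, and deposited CPM, the reads of a miRNA scaled to those mapped to all miRNAs. The values were whole multiples of a step for 100% of entries (tolerance 0.02 reads), and this step gave the mapped reads. The files are described as raw counts, but they hold CPM, so limma 3.58.1 in R 4.3.3 (lmFit, eBayes with trend) was run on log2(CPM + 1) with 6 tissue-by-diet means and Benjamini-Hochberg adjustment at 0.05. The edgeR 4.0.16 and DESeq2 1.42.0 tests on the recovered reads, TMM scaling and other pseudocounts were alternatives. A miRNA was tested where over 50% of the 18 samples of either tissue had it above 1 CPM, and miR-483 alone of the 304 was not.

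Named miRNAs are the 12 largest differences each way with a mean of at least 100 CPM in the higher tissue, the 10 most abundant per tissue, list members, the 10 highest listed in 1 tissue only, the 5 smallest interaction p-values, and the 4 largest changes of arm ratio each way. Members and lists were chosen with earlier results of these data known. Neighbouring genes came from RefSeq, where 301 of 303 miRNAs matched. Mature sequences were not used here, so sums over shared seeds were not computed. Shares were compared with 100000 permutations. The fits were also run on simulated data, with the same dispersion for every miRNA and no libraries that stood apart. That simulation cannot show how the fits behave with such libraries. No samples were identical. Nothing says that samples of a group are free of technical spread.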

Additional observations from a re-analysis of the deposited data

Results flagged for a closer look

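In the groups of 6 samples, 34 named miRNAs were searched for a sample far from the others by Dixon's criterion at 95%. Of 204 groups 20 held such a sample (9.8%), and 8 of the 20 were in libraries that stood apart. The search used CPM and not log2 values. Chance flags about 1 in 20 groups only where values are normally distributed, which was not tested for CPM. The 9.8% is therefore not read as an excess over chance. Highest and lowest refer here to the 6 samples of a tissue and forage, not to the whole tissue. In mammary alfalfa hay 1, miR-10b was highest at 235766 CPM, miR-486 was highest at 4051 CPM and miR-29c was lowest at 589 CPM. In mammary rice straw 4, miR-149-5p, miR-378b and miR-378c were highest at 49.1, 14.5 and 200.0 CPM, and in mammary rice straw 1, miR-190a and miR-30a-5p were highest at 282 and 178128 CPM. miR-190a was also highest in rumen rice straw 1, at 58.1 CPM, and in mammary alfalfa hay 4, at 597 CPM.

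Among the other mammary gland samples, miR-143 was lowest in corn stover 4 at 69396 CPM, miR-21-3p was highest in alfalfa hay 2 at 253 CPM and in corn stover 5 at 117 CPM, and miR-21-5p was highest in corn stover 3 at 51621 CPM. In rumen, within their groups of 6, miR-193b was highest in rice straw 6 at 2380 CPM, miR-31 in rice straw 2 at 6388 CPM and miR-708 in corn stover 1 at 300.0 CPM. miR-375 was highest in alfalfa hay 3 at 106 CPM and in corn stover 4 at 97.5 CPM, and miR-411a was highest in alfalfa hay 3 at 1253 CPM.

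In the main fit to all samples, the difference between the tissues varied with forage for miR-15a, miR-128, miR-362-3p, miR-29c and miR-502b. Each had a limma adjusted p of 0.0304 for the interaction. The number of miRNAs called by this test was 26 there and 7 with TMM scaling. Because mammary rice straw 1 to 5 stood apart, forage and library cannot be told apart for the values under rice straw.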

How the results depend on the processing

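The 24 miRNAs with the largest differences kept their direction and call in all 16 alternatives (384 combinations). They were picked as the largest of the main fit to the same samples, so this outcome was largely set by the choice. Of the 181 miRNAs named in the lists or rankings, 0 that passed in the main fit passed in the opposite direction in an alternative. The direction of some that did not pass there varied. miR-15a differed by 0.27 in the main fit, 1.5 in rice straw samples alone and -0.63 in corn stover samples alone. For miR-126-3p these values were 0.09, 1.12 and -0.6. The counts of 141 and 90 stayed within 1.5 times under all alternatives except rice straw samples alone, where 34 were higher in mammary gland. The count of 26 for the interaction with forage was 14 with a pseudocount of 0.1 CPM, 7 with TMM scaling, 14 with upper-quartile scaling, 40 without the libraries under 2000000 reads, 17 with edgeR and 46 with DESeq2. Without the libraries that stood apart it was 0, with or without TMM scaling (46 and 66 at an unadjusted limma p under 0.05). That choice was made after seeing the data, and the lone rice straw sample left in mammary gland is assumed to vary like the other groups. Arm ratios higher in rumen numbered 2 in rice straw and 2 in alfalfa hay samples alone, and those lower in rumen numbered 3 in alfalfa hay samples alone, where fewer samples entered the fit. The gap of -3.64 points in the share of the 10 most abundant was -1.36 without the libraries that stood apart (permutation p = 0.202). Of the miRNAs listed in 1 tissue only, 4 in rumen and 10 in mammary gland had a mean above 5 CPM. For the other changes the cause was not tested. With forage and sample number as a replicate block, as if a number marked 1 cow, 137 were higher in rumen, 87 in mammary gland, and 28 varied with forage. Same-numbered samples correlated at -0.27 to 0.33 in their deviations (8 of 18 pairs over 0.1), and 6 of 18 correlated best with their own number. How many would do so with unrelated numbers was not tested. These values therefore do not settle whether a number marks the same cow in both tissues. The main fit did not pair the samples because the labels do not tie a number to a cow. Sums over shared seeds were not run. Depth limits low miRNAs most in mammary alfalfa hay 1, where 3 reads were worth 3.2 CPM.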
